A study of Mus musculus with 192 samples.

Results

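Ccl3, Ccl4 and Ccl5 are genes of the CC chemokine family, and their transcripts were followed here through every group of a study of combined microbial stimulation. They were chosen by name, 3 of the 23481 genes in the count table, with earlier results of these data known. The cells were dendritic cells grown from the bone marrow of female C57BL/6J mice aged 6 to 8 weeks in medium with 15 ng/mL GM-CSF, and plated at 100000 cells per well. All groups share that origin and a 6 h exposure, and each group has 3 libraries. Ctrl received no ligand, 7 groups received 1 ligand, 21 a pair and 35 a triplet, which makes 64 groups. The ligands carry their label names, PAM, HMW, SeV, CpGB, LPS (lipopolysaccharide), cGAMP (a cyclic dinucleotide) and Zymosan (in its depleted form). The labels do not say whether the libraries of a group came from separate cultures or animals, so p-values measure the spread between these libraries, which may be technical.

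Chemokines are small secreted proteins that bind G protein-coupled receptors and direct the movement of leukocytes. Ccl3 and Ccl4 are also known as MIP-1 alpha and MIP-1 beta and Ccl5 as RANTES, and Ccr1 is a receptor of Ccl3 and Ccl5. Dendritic cells release these chemokines when microbial sensors are engaged. Transcription of these genes is known to respond to NF-kB, and that of Ccl5 also to interferon regulatory factors.

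The genes lie close together on mouse chromosome 11 in GENCODE annotation of the mm10 build. Ccl5 occupies positions 83525778 to 83530518 on the minus strand, Ccl3 occupies 83647844 to 83649355 on the minus strand, and Ccl4 occupies 83662584 to 83664683 on the plus strand. Each is protein coding with 3 exons, and the stretch from the first to the last spans 138906 bp. The annotated transcripts share no window of 31 bases with each other or with any other gene's transcript. A predicted RefSeq model of Ccl4 reaches across Ccl3 on the opposite strand, and whether the counting used strand is not given in the sources used here.

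The RefSeq promoter of Ccl3 is shown as the sequence in front of a transcript that 5 of the 7 ligands given alone raised. Ccl4 and Ccl5 were each raised by 5 ligands as well, and their promoters were not used here. It covers chr11:83649329-83649628 of mm10 on the minus strand, from 250 bases before the RefSeq start to 50 after it. Of 6 motifs searched on both strands, 4 were on the list first drawn up: the kB consensus of NF-kB, the repeat consensus of interferon response elements, TGANTCA of AP-1 and TATAAA. None of those 4 was found in this window, and they occur in 4.51%, 3.44%, 7.81% and 13.6% of the 32851 RefSeq promoters of that length. The other 2, TATAAG and the C/EBP pattern TTNNGNAA, were added when the Ccl3 sequence had already been seen, and both occur in it. They occur in 7.43% and 40.7% of all promoters, and the capitals mark their matches.
Ccl3 promoter: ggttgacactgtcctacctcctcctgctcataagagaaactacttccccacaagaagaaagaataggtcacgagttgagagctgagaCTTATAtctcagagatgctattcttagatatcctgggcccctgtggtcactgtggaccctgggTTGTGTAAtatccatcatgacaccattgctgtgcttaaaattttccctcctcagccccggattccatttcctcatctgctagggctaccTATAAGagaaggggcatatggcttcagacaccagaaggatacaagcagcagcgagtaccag
The matches of TATAAG start 163 bases before the RefSeq start, read on the opposite strand, and 11 bases before it. The match of the C/EBP pattern starts 100 bases before it. The GENCODE start of Ccl3, at 83649355 on the minus strand, lies further downstream in this window, so distances from it are larger.

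Depth was low and uneven. Library totals ran from 46564 to 610234 UMIs with a median of 171616.5, and no group had a lower mean than Ctrl, at 73431 ± 14389 (SD, n = 3). A UMI (unique molecular identifier) marks 1 cDNA molecule, and levels below are counts-per-million (CPM) of UMIs after TMM scaling of the library totals. The members are abundant: even in Ctrl, Ccl3 was read with 41 to 54 UMIs per library. Dendritic cell markers summed to 5043 to 7103 CPM over the 64 groups with all 8 markers detected, macrophage markers to 1663 to 3174 CPM and neutrophil markers to 520 to 961 CPM. Most of the dendritic sum came from H2-Aa, H2-Ab1 and Cd74, with means of 2520, 1804 and 997 CPM over all libraries. Ccr7 and Itgax had 463 and 325 CPM, but Flt3, Zbtb46 and Cd209a only 3.02, 3.03 and 0.09 CPM. Macrophage markers ran from 7.21 CPM for Mertk to 810 CPM for Csf1r. These sums alone do not set the cell type. B cell markers, with 4 of 5 detected, summed to 0 to 18.7 CPM, mast cell and basophil markers, with 5 of 5 detected, to 0 to 12.6 CPM, and T and NK cell markers, with 6 of 8 detected and Cd3e at 0, to 0 to 3.45 CPM. Ctrl had 5046 CPM of the dendritic cell markers, near the lowest group and below the median of 6215, and 3068 CPM of the macrophage markers, near the highest group and above the median of 2214. These sums thus differed between Ctrl and most stimulated groups, as the chemokines did, and their part in the results was not tested.

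Each library's profile over 2626 genes was correlated with the mean of the other 2 libraries of its group and with the means of all other groups. In 137 libraries of the 64 groups the closest of the other groups gave the higher r. The difference in r was 0.2 or more in 6 libraries, all from triplets, and these are treated below as standing apart. They are replicate 1 of HMW + cGAMP + CpGB, HMW + SeV + CpGB, Zymosan + SeV + cGAMP and HMW + SeV + cGAMP, and replicate 3 of PAM + HMW + SeV and LPS + SeV + CpGB. Their Ccl3 levels were 0.426 to 1.96 times the mean of the other 2 libraries of the group, those of Ccl4 0.431 to 1.86 times and those of Ccl5 0.541 to 2.07 times. Counts of calls that use these groups are given below with and without them where they differ. The counts of called combinations against Ctrl, mean effects, ratio changes, pairs above both single ligands and triplets above all pairs were the same without them.

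Each ligand alone was first compared with Ctrl. LPS, cGAMP, CpGB and PAM raised all 3 chemokines, SeV raised Ccl4 and Ccl5, Zymosan raised Ccl3, and HMW raised none. In all, 15 of the 21 comparisons were called higher and none lower, against 8.70% of the 33040 gene comparisons called higher and 4.95% called lower in this set of contrasts. A call needs an adjusted p under 0.05 in the quasi-likelihood test of edgeR (Benjamini-Hochberg, over 4720 genes) and a log2 fold change of 1 or more in size.

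Ccl3 was read at 568, 674 and 509 CPM in the 3 Ctrl libraries. CpGB gave 5667, 6668 and 7359 CPM, the highest single-ligand level of Ccl3, and PAM gave 4822, 4339 and 4711 CPM. LPS gave 3461, 3165 and 3490 CPM. No library of these ligands came near the Ctrl libraries, and the order of the means was CpGB, PAM, LPS and then cGAMP with 2751, 2542 and 2160 CPM. Zymosan gave 1454, 1337 and 1208 CPM and SeV 1195, 1104 and 1013 CPM. Both lay above every Ctrl library, while HMW with 499, 556 and 469 CPM overlapped Ctrl. The log2 fold change of Ccl3 was 3.51 ± 0.19 (SE) with CpGB and 2.99 ± 0.19 with PAM (edgeR's quasi-likelihood test, adjusted p 1.83e-44 and 3.6e-36). It was 0.92 ± 0.21 with SeV, with an adjusted p of 2.04e-04 in that edgeR test but below the fold required for a call.

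Ccl4 had a different order. Its Ctrl libraries stood at 789.5, 1160 and 864 CPM. The highest level came with cGAMP, at 9133, 8981 and 9421 CPM, followed by CpGB at 5463, 6372 and 7525 CPM and LPS at 4213, 4090.1 and 4291 CPM. No library of one of these ligands overlapped those of the next. SeV gave 3383, 3035 and 2964 CPM and PAM 1968, 1755 and 2178 CPM. Both groups lay above every Ctrl library, and SeV above every PAM library. Zymosan gave 1675, 1561 and 1432 CPM, and HMW gave 715, 776 and 729.6 CPM, just under the lowest Ctrl library. The log2 fold change of Ccl4 was 3.29 ± 0.19 with cGAMP and 1.07 ± 0.19 with PAM (edgeR's quasi-likelihood test, adjusted p 3.6e-41 and 1.99e-06). The PAM value fell below 1 under other scalings, at 0.93 with the median-ratio factors of DESeq2 and 0.88 with library size alone. The Zymosan value of 0.72 ± 0.20 had an adjusted p of 0.0064 in that edgeR test and was below the fold required.

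Ccl5 was highest with LPS. Its Ctrl libraries stood at 2133, 2470 and 2074 CPM, and the LPS libraries at 27252, 25211 and 28623 CPM, above every library of the other single ligands. CpGB gave 11577, 12759 and 16988 CPM and cGAMP 14130.3, 12206 and 12871 CPM. These groups overlapped, and their difference of -0.08 ± 0.14 in log2 (cGAMP minus CpGB) had an adjusted p of 0.766 in edgeR's quasi-likelihood test. SeV gave 5963, 5105 and 4915 CPM and PAM 5144, 4660.4 and 5500.4 CPM, which also overlapped. HMW with 2478, 2605 and 2105 CPM and Zymosan with 2356, 2822 and 2267 CPM overlapped Ctrl. The log2 fold change of Ccl5 was 3.60 ± 0.16 with LPS, 2.63 ± 0.16 with CpGB and 2.55 ± 0.16 with cGAMP (edgeR's quasi-likelihood test, adjusted p 4e-54, 3.17e-37 and 7.08e-36). With PAM it was 1.20 ± 0.16 and with SeV 1.26 ± 0.16.

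**Figure D1:**
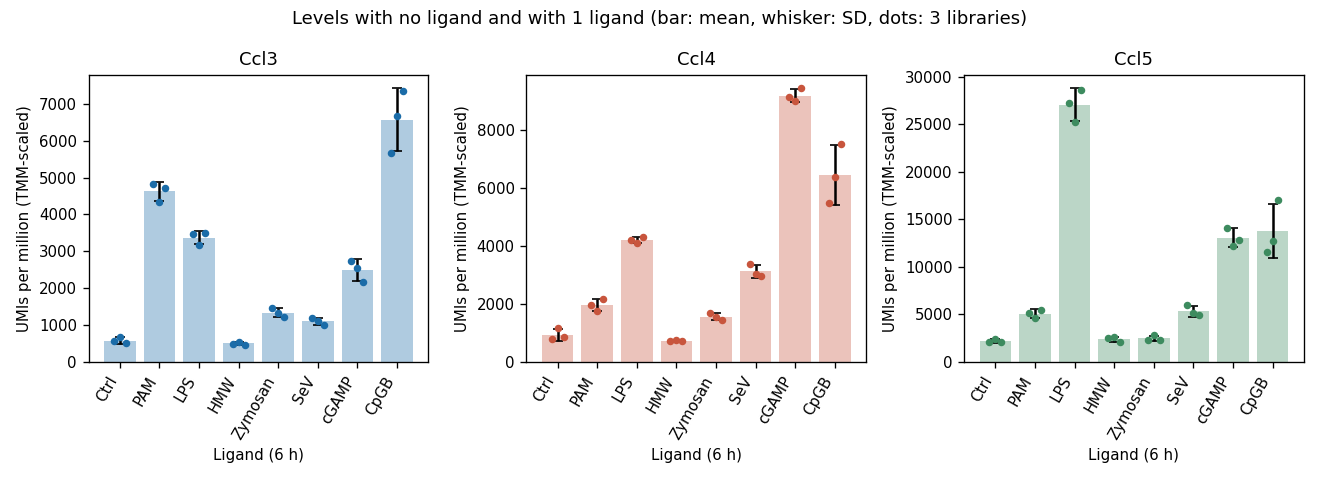
Levels of the 3 chemokines (CPM, linear axes from 0) in Ctrl and the 7 single-ligand groups; bars are means, whiskers SD and dots the 3 libraries. Ccl3 is highest with CpGB, Ccl4 with cGAMP and Ccl5 with LPS, and HMW stays at the Ctrl level.

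The genes were compared with each other through the change in their ratio. For each ligand, the log2 ratio of 2 members was compared with and without the ligand over the 22 backgrounds that hold at most 2 other ligands. Of 21 such changes, 20 were called by a two-sided permutation test with 100000 resamples within backgrounds and Benjamini-Hochberg adjustment over the 21. These calls have no limit on size, and the share that other gene pairs would give was not computed, so nothing particular to these genes is read from the count. PAM moved the ratio of Ccl3 to Ccl5 by 1.02 toward Ccl3, in the same direction in 22 of 22 backgrounds, and the ratio of Ccl3 to Ccl4 by 0.72, in 21 of 22 (permutation test, adjusted p 1.4e-05 for both, from 1e-05, the smallest that these resamples can give). LPS moved the ratio of Ccl4 to Ccl5 by -0.86, toward Ccl5 in all 22 backgrounds. Zymosan moved the same ratio by 0.87, toward Ccl4 in all 22, and cGAMP moved the ratio of Ccl3 to Ccl4 by -0.59, toward Ccl4 in all but 3. The exception was the ratio of Ccl3 to Ccl5 with cGAMP, at -0.09 with a permutation p of 0.171. Some called changes were small and split over the backgrounds. HMW moved the ratios of Ccl3 to Ccl4 and of Ccl4 to Ccl5 by -0.08 and -0.06, each higher in 10 of 22 backgrounds, and LPS moved the ratio of Ccl3 to Ccl4 by 0.16, higher in 12 of 22.

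The mean effect of each ligand on each chemokine was taken over the same 22 backgrounds. Of 21 mean effects, 8 reached a log2 change of 1 and were called higher, against 2.52% of gene comparisons called higher in these contrasts. Ccl3 was raised most by PAM, at 1.61 ± 0.03 (SE), and CpGB, at 1.58 ± 0.03, and also by cGAMP, at 1.28 ± 0.03, and LPS, at 1.13 ± 0.03. Ccl4 was raised most by cGAMP, at 1.87 ± 0.03, with CpGB at 1.15 ± 0.03. Ccl5 was raised most by LPS, at 1.82 ± 0.03, with cGAMP at 1.36 ± 0.03. Zymosan had a mean effect of 0.86 on Ccl4 but of -0.02 on Ccl5, with an adjusted p of 0.615 for the latter in edgeR's quasi-likelihood test. HMW gave 0.11, 0.18 and 0.25 for Ccl3, Ccl4 and Ccl5. The difference between PAM and CpGB for Ccl3 was not tested. These standard errors do not measure the spread over backgrounds. PAM added to 1 or 2 ligands changed Ccl3 by -0.16 on Zymosan + CpGB to 3.81 on HMW.

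**Figure D2:**
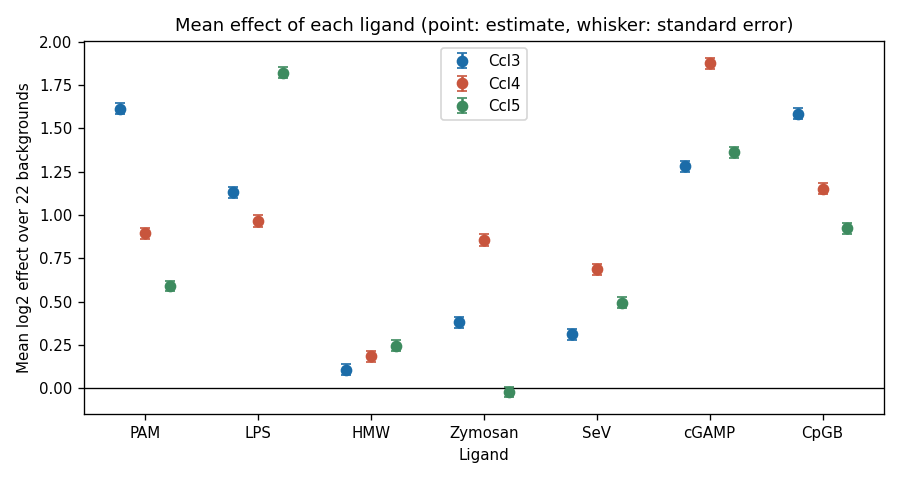
Mean log2 effect of each ligand over 22 backgrounds for Ccl3, Ccl4 and Ccl5 (points, with standard errors as whiskers; the horizontal line is no effect). PAM and CpGB lie highest and close together for Ccl3, cGAMP lies highest for Ccl4 and LPS for Ccl5.

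Combinations were then compared with Ctrl. Of 168 comparisons, 165 were called higher and none lower, against 14.9% of gene comparisons called higher and 9.54% called lower in these contrasts. The 3 exceptions were higher than Ctrl at a smaller fold: Ccl5 in PAM + Zymosan and HMW + Zymosan, with log2 fold changes of 0.94 and 0.79, and Ccl3 in HMW + SeV, at 0.86.

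The highest mean of Ccl3 was in PAM + HMW + cGAMP, with 16621, 16136 and 18983 CPM. PAM + cGAMP + CpGB, with a mean of 17201 CPM, had all libraries within that range and a higher share of UMIs (1.48% against 1.45%). The pair cGAMP + CpGB followed with a mean of 15163 CPM. As a share of UMIs, LPS + cGAMP + CpGB exceeded that pair (1.40% against 1.36%). Without its library that stood apart, HMW + cGAMP + CpGB would lie above that pair, with a mean of 16293.5 CPM in the other 2 libraries. The lowest were HMW + SeV with a mean of 1045 CPM, HMW + Zymosan with 1424 CPM and Zymosan + SeV with 1964 CPM. For Ccl4 the highest was PAM + Zymosan + cGAMP, with 28451, 28332 and 31055 CPM. All of the 3 highest groups of Ccl4 held cGAMP, the others being Zymosan + cGAMP + CpGB with a mean of 27651 CPM and PAM + cGAMP + CpGB with 23845 CPM. Libraries of PAM + Zymosan + cGAMP and Zymosan + cGAMP + CpGB overlapped, and the latter had the higher share of UMIs (2.54% against 2.53%). The lowest were HMW + Zymosan with 2655 CPM, HMW + SeV with 3253 CPM and PAM + CpGB with 3759 CPM. For Ccl5 the highest was LPS + cGAMP + CpGB, with 38476, 30506 and 39127 CPM, where the transcript took 3.41% of all UMIs. LPS + CpGB, with a mean of 35354 CPM, and LPS + SeV + cGAMP, with 35182 CPM, lay within the spread of those libraries. The lowest were HMW + Zymosan with 3842 CPM, PAM + Zymosan with 4272 CPM and Zymosan + SeV with 5618 CPM.

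The median of group means rose for Ccl3 from 583 CPM in Ctrl to 2484 with 1 ligand, 5925 with 2 and 9028 with 3. For Ccl4 the medians were 938, 3127, 9092 and 12649 CPM, and for Ccl5 they were 2225, 5328, 14801 and 26691 CPM. Without the 6 libraries that stood apart, the medians with 3 ligands were 9418 CPM for Ccl3, 12305 for Ccl4 and 27481 for Ccl5. Every one of the 22 groups with LPS had at least 24631 CPM of Ccl5, a level exceeded by 9 of the 42 groups without it. Every group with cGAMP had at least 8682 CPM of Ccl4, exceeded by 21 of the 42 groups without it.

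**Figure D3:**
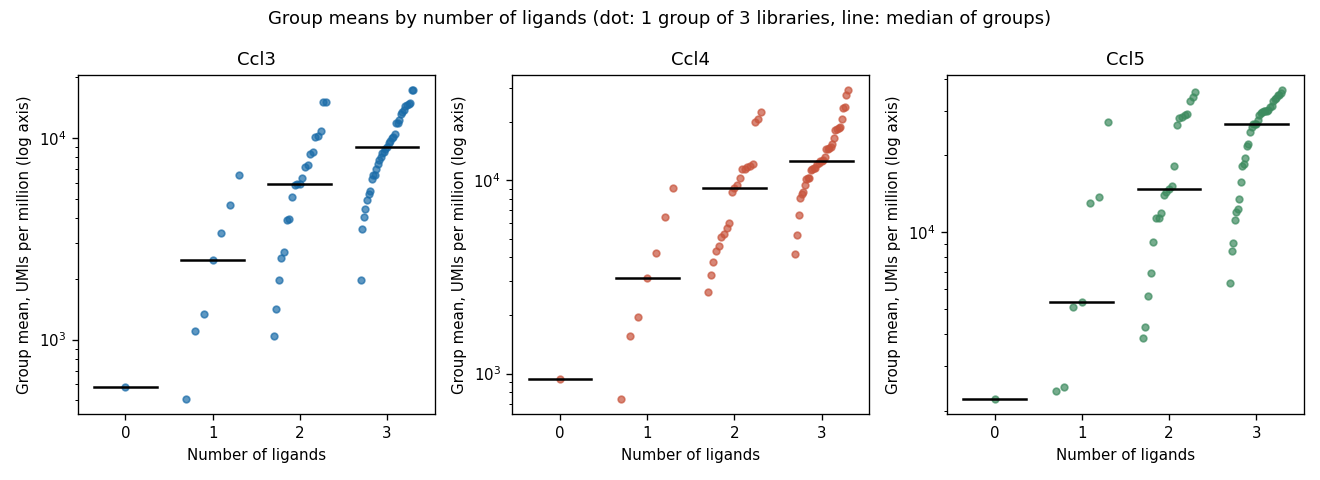
Group means of the 3 chemokines (CPM, log axis) against the number of ligands; each dot is 1 group of 3 libraries and the line is the median of the groups. Medians, taken over different sets of groups, are higher with more ligands. They reach 9028, 12649 and 26691 CPM with 3 ligands for Ccl3, Ccl4 and Ccl5.

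Adding a ligand to 1 or 2 others was tested in every possible step. Of the 441 tests, 170 were called higher, 56 for Ccl3, 62 for Ccl4 and 52 for Ccl5, against 3.02% of gene comparisons called higher in these contrasts. Without the 6 libraries that stood apart, 172 were called higher, including all 170. None was called lower by edgeR, against 1.49% of gene comparisons. Of the changes, 17 were lower at an unadjusted p under 0.05, 5 of them with an adjusted p under 0.05 at a smaller fold, and DESeq2 also called none. Steps onto 1 ligand were called higher in 74 of 126 tests, against 4.86% of gene comparisons, and steps onto 2 ligands in 96 of 315, against 2.28%, so the share over all genes was also lower onto 2. LPS raised Ccl5 in 18 of 21 steps, against 5.69% of gene comparisons. cGAMP raised Ccl4 in 15 and Ccl3 in 14, against 5.36%. Zymosan raised Ccl5 in none of 21 but Ccl4 in 9, against 2.42%. The 5 falls with an adjusted p under 0.05 include PAM added to CpGB, for Ccl4 and Ccl5, and Zymosan added to PAM + SeV, for Ccl5, with a log2 change of -0.71 ± 0.14 (edgeR's quasi-likelihood test, adjusted p 7.72e-05).

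Pairs were compared with both of their single ligands. A call above both needed a log2 difference of 1 or more from each of them, with the larger p-value used for adjustment. This held in 18 of 63 tests, 6 for Ccl3, 8 for Ccl4 and 4 for Ccl5, against 0.353% of gene comparisons. PAM + SeV, PAM + cGAMP and cGAMP + CpGB passed for all 3 chemokines. With library size alone in place of TMM factors, 11 of the 18 passed. Ccl5 in cGAMP + CpGB, at 1.04, was not called by DESeq2 either.

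The largest gain of Ccl4 was in PAM + SeV, with 10784, 13042 and 12476 CPM, where every library exceeded every library of PAM and of SeV alone. The log2 fold change over SeV, the higher single ligand, was 1.96 (edgeR's quasi-likelihood test, adjusted p 1.61e-23). Ccl5 also gained most there, with 13135, 15476 and 15792 CPM and 1.48 over SeV (adjusted p 6.51e-17 in that edgeR test). Ccl3 gained most in PAM + cGAMP, with 14551, 14539 and 16035 CPM and 1.70 over PAM (adjusted p 2.82e-22 in that edgeR test). In LPS + Zymosan, Ccl4 was 1.48 above LPS and called. Ccl3 was there 0.60 above LPS with an adjusted p of 0.0053 in that edgeR test, below the fold required, although each of its libraries, at 5361, 5406 and 4596 CPM, exceeded every LPS library. Ccl5 in that pair stood at 26352 CPM, next to 27029 CPM with LPS alone. The difference between the genes in these gains was not tested.

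**Figure D4:**
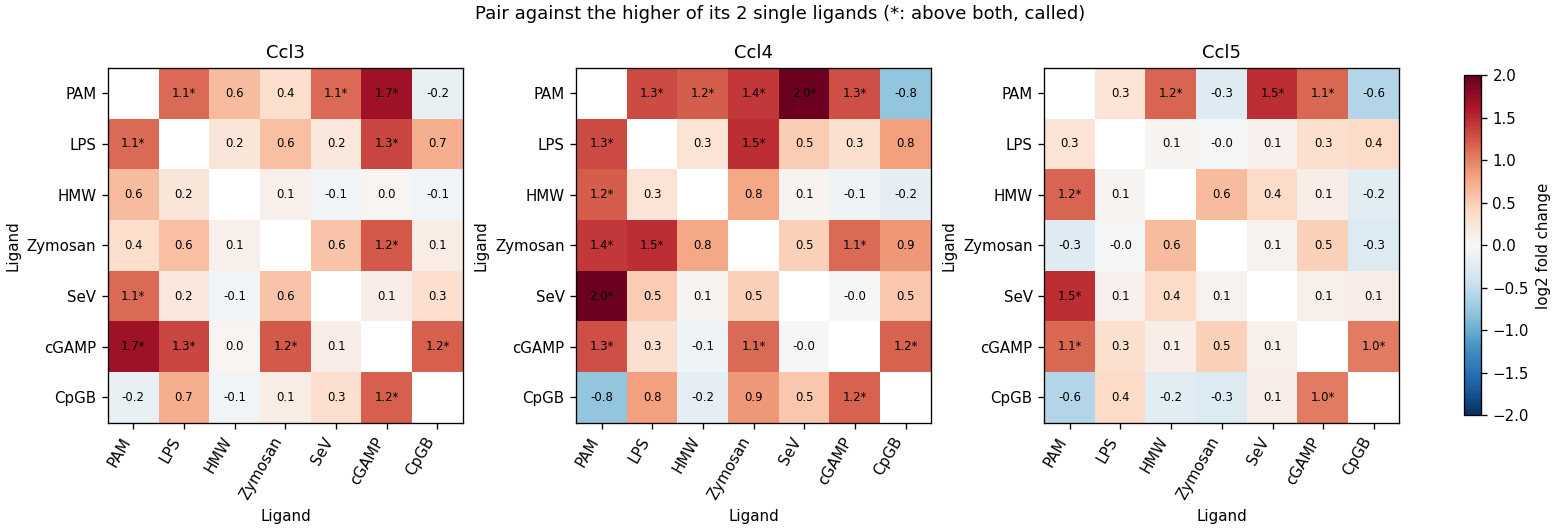
Log2 fold change of each pair over the higher of its 2 single ligands, for Ccl3, Ccl4 and Ccl5 (rows and columns are ligands, each pair appears on both sides of the diagonal; an asterisk marks pairs called above both). PAM + SeV has the largest value for Ccl4, 1.96, and PAM + CpGB has values below 0 for all 3 genes, of which that of Ccl3, -0.16, lies within the libraries of CpGB alone.

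A pair interaction is the departure of the pair from the sum of the log2 effects of its ligands. Of 63 interactions, 26 were called, 23 negative and 3 positive, against 3.50% and 1.08% of gene comparisons. With the median-ratio factors of DESeq2 the split was 21 negative and 6 positive, and without the 6 libraries that stood apart it was 26 negative and 6 positive. The positive ones were PAM + HMW for Ccl4, at 1.55 ± 0.26, and Ccl5, at 1.05 ± 0.22, and PAM + SeV for Ccl4, at 0.89 ± 0.25 (edgeR's quasi-likelihood test, adjusted p 6.03e-05, 0.00553 and 0.0469). Without replicate 2 of all groups no positive interaction was called, and without replicate 3 only 1 was. In PAM + HMW, Ccl4 was at 4612, 4539 and 4570.5 CPM, above all libraries of PAM and of HMW alone.

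The lowest interaction of Ccl3 was in PAM + CpGB. It was at 5945, 5775 and 6024 CPM with the pair, within the range of CpGB alone, and its interaction was -3.15 ± 0.24 (edgeR's quasi-likelihood test, adjusted p 6.15e-27). Ccl4 was at 3864, 3820.5 and 3592 CPM, below every CpGB library, with an interaction of -1.85 ± 0.25. Ccl5 was at 9218, 8330 and 9904 CPM, also below every CpGB library, with an interaction of -1.79 ± 0.21. Ccl5 had lower values in LPS + CpGB, at -2.25 ± 0.21, and LPS + cGAMP, at -2.23 ± 0.21, and Ccl4 in LPS + cGAMP was at -1.85 ± 0.24. Relative to CpGB alone, Ccl4 fell by 0.79 and Ccl5 by 0.59 on the log2 scale when PAM was added (edgeR's quasi-likelihood test, adjusted p 2.98e-04 and 0.00419), both short of the fold required for a call. All 3 pairs among LPS, cGAMP and CpGB had called negative interactions for each chemokine. Those of Ccl3 in LPS + cGAMP, at -0.75 ± 0.24, and in cGAMP + CpGB, at -0.89 ± 0.24, did not pass without replicate 3 of all groups.

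**Figure D5:**
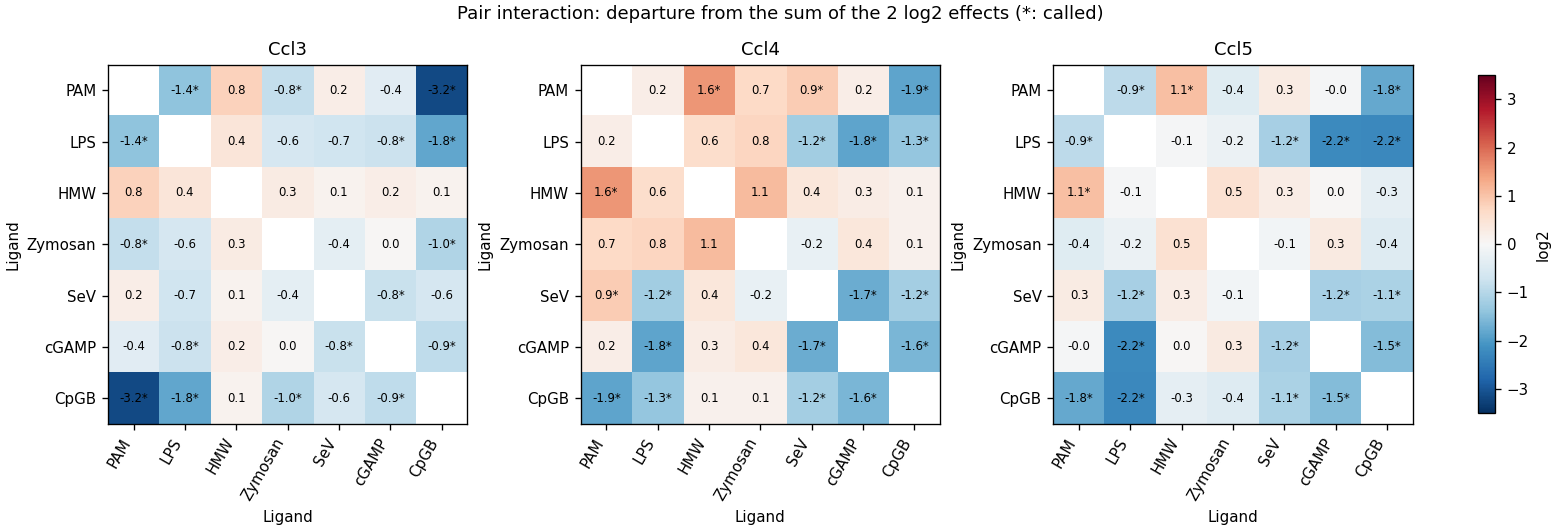
Pair interactions on the log2 scale for Ccl3, Ccl4 and Ccl5 (rows and columns are ligands, each pair appears on both sides of the diagonal; 0 means that log2 effects add up; an asterisk marks called interactions). Most called interactions are negative, the strongest for Ccl3 in PAM + CpGB at -3.15.

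Triplets were compared with the pairs they contain. Of 105 triplet means, 104 lay within 1 log2 unit of the highest pair they contain, and 61 lay below it. Only Ccl4 in PAM + HMW + Zymosan was called above all 3 pairs, at 1.15, against 0.0115% of gene comparisons. Its libraries stood at 15115, 8560.2 and 11292 CPM, and without replicate 1 of all groups the value was 1.00 and not called.

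Of 105 three-way interactions, 16 were called, 8 in each direction, against 0.803% of gene comparisons called positive and 0.130% called negative. Ccl4 had 7 negative and 2 positive, Ccl5 had 1 negative and 5 positive, and Ccl3 had 1 positive, PAM + LPS + CpGB at 1.75 ± 0.31. The lowest was Ccl4 in PAM + LPS + HMW at -2.12 ± 0.34. Without the 6 libraries that stood apart, 29 were called, including all 16. In the triplets with such a library, Ccl4 in PAM + HMW + SeV moved from -1.55 to -1.72 and Ccl5 in LPS + SeV + CpGB from 0.91 to 1.02. Ccl5 in PAM + HMW + SeV moved from -0.87 to -1.27 and was then called (edgeR's quasi-likelihood test, adjusted p 0.517 with the library and 0.00172 without it). Without replicate 3 of all groups, 5 were called. Without replicate 2, 8 were called, all positive.

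The genes with the most similar pattern were sought among 4500 genes by Pearson's r of log2 group means over the 64 groups, which share ligands and Ctrl. For Ccl3 they were Nfkbia (0.95), Nfkb1 (0.91), Il6 (0.91), Tnf (0.90) and Il1a (0.89). For Ccl4 they included Tnfsf15 (0.91), Ccrl2 (0.90), Tiparp (0.88) and Cd274 (0.87). For Ccl5 they were Slamf7 (0.94), Cd40 (0.94), Rap1b (0.93), Kpna3 (0.93) and Gbp3 (0.92). Between the members r was 0.83 for Ccl3 and Ccl4, 0.79 for Ccl4 and Ccl5 and 0.76 for Ccl3 and Ccl5. By rank among these genes, Ccl4 and Ccl5 stood at 23 and 71 for Ccl3, and Ccl3 and Ccl5 at 17 and 31 for Ccl4. For Ccl5, Ccl4 and Ccl3 stood at 168 and 244.

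Genes listed around these chemokines were compared between each single ligand and Ctrl, in which the share of all genes called differed by ligand. LPS raised 14.6% and lowered 9.60% of all genes, CpGB raised 10.8% and lowered 6.27%, and cGAMP raised 11.7% and lowered 5.91%. SeV raised 10.5% and lowered 5.13%, and PAM raised 8.01% and lowered 5.89%. Zymosan raised 4.43% and lowered 1.82%, and HMW raised 0.953% and lowered 0.0212%. The counts below are to be read against these shares.

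Of the 10 receptors and decoys listed for these chemokines, 5 were tested. PAM raised 1 and lowered 2, LPS and CpGB each raised 1 and lowered 1, SeV raised 2, cGAMP raised 1, and HMW and Zymosan gave no call. Ccr1, a receptor of Ccl3 and Ccl5, fell with LPS from 167 ± 39.0 CPM to 47.1 ± 18.8 (SD, n = 3), a log2 change of -1.76 (edgeR's quasi-likelihood test, adjusted p 1.1e-04), and fell with PAM and CpGB by 1.73 and 1.05. Sdc4, a heparan sulfate proteoglycan, rose with LPS from 186 ± 96.6 to 1129 ± 116 CPM (SD, n = 3), a log2 change of 2.56. Ackr2, a decoy receptor, did not pass the filter on low counts.

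Of the 16 other CC chemokines listed, 7 were tested, and LPS raised 6, CpGB 5, PAM, SeV and cGAMP 3 each, Zymosan 1 and HMW 0, with none lower. Median log2 fold changes of the tested members were 2.92 with LPS and 2.87 with CpGB, beside medians of -0.06 and -0.03 over all genes. Ccl12 and Ccl7 had no UMI in the 3 Ctrl libraries. With 3 counts over the Ctrl group as the floor, SeV left Ccl12 at least 11.8-fold higher and cGAMP left Ccl7 at least 9.48-fold higher.

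All 18 listed regulators of these promoters were tested. LPS raised 7 and lowered 2, CpGB and PAM each raised 6 and lowered 2, SeV and cGAMP raised 5 each, and Zymosan and HMW 3 each. Irf7, a transcription factor of the interferon response, rose with LPS by a log2 change of 3.58, from 133 ± 60.1 to 1593 ± 42.8 CPM (SD, n = 3). Of the 6 listed regulators of mRNA decay, LPS raised 2 and lowered 2, PAM and CpGB each raised 2 and lowered 1, cGAMP and Zymosan raised 1 each, SeV lowered 1, and HMW gave no call. Zfp36l2, an RNA-binding decay factor, fell with LPS from 300 ± 31.9 to 53.3 ± 15.1 CPM (SD, n = 3), a log2 change of -2.43. Zc3h12a, an RNase that degrades inflammatory transcripts, rose with PAM by 2.33.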

How the data were processed

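RNA was counted in 64 groups of 3 libraries. The deposited values are whole-number UMI counts per gene symbol, made by the authors and not normalized. BWA 0.7.15 and the mm10 build are named in the submitters' processing notes, without their roles. The annotation, strand use and rule for collapsing UMIs are not given in the sources used here.

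Genes were kept by filterByExpr, which left 4720 genes with 95.7% of UMIs, and scaled with TMM factors. One edgeR 4.0.16 quasi-likelihood model (R 4.3.3) with a coefficient per group was fitted to all libraries (128 residual degrees of freedom, common biological coefficient of variation 10.3%), with Benjamini-Hochberg adjustment over genes in each contrast. Interactions had no fold threshold. Log2 CPM used a prior count of 2. The 3 genes and all gene lists were chosen with earlier results of these data known. Named genes were the 3 chemokines, the 3 highest and 3 lowest combinations, the 5 most similar genes above 20 CPM, and the 2 genes of each list with the largest called change, plus Ccr1 and Ackr2. Some genes that this rule names are not reported here. Of the promoter motifs, 2 of 6 were added with the Ccl3 sequence in view, and only these 2 matched. Alternatives were DESeq2 1.42.0, other scalings, no filter, thinning to 46564 UMIs, a replicate block, left-out libraries and, chosen after seeing the data, leaving out the 6 libraries that stood apart, by at least 0.2 in r.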

Additional observations from a re-analysis of the deposited data

Results flagged for a closer look

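In 5 cases the estimated effects of a ligand alone and on a second ligand had opposite signs, with a called pair interaction in edgeR's quasi-likelihood test. HMW changed Ccl4 by -0.34 ± 0.21 (SE, log2) alone (adjusted p 0.693 in that edgeR test) and by 1.22 ± 0.16 when added to PAM, an interaction of 1.55. PAM raised Ccl3 by 2.99 alone and changed it by -0.16 ± 0.14 on CpGB, an interaction of -3.15. PAM raised Ccl4 by 1.07 alone and changed it by -0.79 ± 0.16 on CpGB, an interaction of -1.85. PAM raised Ccl5 by 1.20 alone and changed it by -0.59 ± 0.14 on CpGB, an interaction of -1.79. SeV raised Ccl4 by 1.73 alone and changed it by -0.01 ± 0.15 on cGAMP, an interaction of -1.75. The effects of PAM on CpGB for Ccl3 and of SeV on cGAMP for Ccl4 had adjusted p of 0.731 and 0.997, so an opposite sign is not shown there, nor for HMW alone. Those of PAM on CpGB for Ccl4 and Ccl5 had adjusted p of 2.98e-04 and 0.00419 in that edgeR test at less than the fold required for a call.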

How the results depend on the processing

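Total counts of calls moved by over 1.5 times in 3 places. Pairs above both single ligands went from 18 to 11 with library size alone, a scaling that moved the median over all genes, against Ctrl, by -0.36 in log2 (-0.16 with median-ratio factors). The call of a triplet above its pairs went from 1 to 0 with thinned libraries. Three-way interactions went from 16 to 10 with thinned libraries and to 29 without the libraries that stood apart. Leaving out 1 replicate number of all groups gave 0 to 1 triplet calls and 5 to 14 three-way calls. The cause was not tested. Over all tested genes, deviations from group means had a median correlation of 0.008 between same-numbered libraries and -0.004 between different-numbered ones. For Ccl5, replicate 2 was the lowest library in most groups. Mean totals rose from 144816 UMIs in replicate 1 to 208699 in replicate 3. A replicate effect on single genes was not tested. The replicate block gave 19 three-way, 27 pair-interaction and 170 added-ligand calls. Values near 0 changed sign: thinned libraries gave 0.0683 for Ccl3 with HMW and -0.0566 for Ccl5 with Zymosan against Ctrl, and the mean effect of Zymosan on Ccl5 ran from -0.0262 to 0.0031 without 1 replicate number. The other total counts stayed within 1.5 times of the main value under the alternatives run. Split by direction, the 3 positive pair interactions became 0 without replicate 2, 1 without replicate 3, and 5 or 6 with DESeq2, other scalings, thinned libraries or without the libraries that stood apart. The 8 positive three-way interactions ran from 3 to 12 and the 8 negative ones from 0 to 17. Depth limits Ctrl most, since it has the lowest mean total of the groups.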
